A study of Mus musculus with 24 samples.

Results

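Cardiomyocyte-specific deletion of *Sirt5* was compared with the control genotype in unstressed hearts, that is, in mice that had undergone Sham surgery only. The comparison held 12 of the 24 sequenced hearts, 6 c*Sirt5*-/- Sham and 6 control Sham, chosen by the genotype and surgery given in the sample labels, and it covered all 24239 genes of the deposited table. All mice were male and carried floxed *Sirt5* alleles on a C57BL6J background, and hearts were taken 12 weeks after surgery, at an age the labels do not give. The c*Sirt5*-/- mice were hemizygous for a Cre recombinase under the *Myh6* promoter, which drives expression in cardiomyocytes, whereas control mice expressed no recombinase. Cre was thus present in every c*Sirt5*-/- heart and in no control heart, so effects of Cre and of the deletion cannot be told apart. RNA came from whole hearts, in which fibroblasts, endothelial cells and immune cells keep *Sirt5*. The remaining 12 hearts, 6 of each genotype, had undergone transverse aortic constriction (TAC), which narrows the aorta and overloads the left ventricle with pressure.

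SIRT5 is a sirtuin of the mitochondrial matrix, where it removes succinyl, malonyl and glutaryl groups from lysines of metabolic enzymes. Many of its known targets act in fatty acid oxidation, ketone body synthesis and the urea cycle. The heart relies on fatty acid oxidation for most of its energy, so the enzymes of that pathway, the contractile and electrical genes of the myocyte, and the markers of injury and inflammation are described in turn. The values are normalized counts, that is, reads per gene divided by a size factor for the depth of each library, and a fold change is given on the scale of log2(normalized count + 1).

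Some features of the libraries bear on each result. Depth ran from 22.5 to 32.9 M (mega) reads in the 12 Sham hearts, with 15.1 to 28.4% of reads on mitochondrially encoded genes. The fraction of antisense reads split the hearts into library sets that the labels do not name. Set 1 held 2 control and 4 c*Sirt5*-/- Sham hearts, and set 2 held 4 control and 2 c*Sirt5*-/- Sham hearts. The numbers in the labels formed 3 series. Control hearts 3 to 6 had low numbers and c*Sirt5*-/- hearts 3 to 6 had high numbers, whereas only the middle series held both genotypes, with hearts 1 and 2 of each. For the other 8 hearts, genotype and number series cannot be told apart. What the numbers stand for is not given in the labels, and nothing states that hearts of a group came from separate litters, so p-values measure the spread between these hearts. Values within set 1, within set 2 and within the middle series (2 against 2 hearts) are therefore given beside the main results. Some single hearts stood apart. Control heart 1 held the highest control counts of *Tnc*, *Ccn2*, *Myh7*, *Col1a1* and *Postn*. c*Sirt5*-/- heart 3 held 46.9 normalized counts of *Rag1* and 28.7 of *Dntt*, genes of developing lymphocytes in the thymus, and c*Sirt5*-/- heart 5 held 173 of *Sftpc*, which encodes a surfactant protein of the lung. In the remaining Sham hearts these 3 genes had at most 6.99. Their part in the results below was not tested. As a check of the tissue, *Myh6*, the main myosin heavy chain of the adult mouse ventricle, held 760308 to 997770 (median 869071) in control and 728626 to 1032835 (median 845832) in c*Sirt5*-/- hearts.

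*Sirt5* itself was lower in every c*Sirt5*-/- Sham heart than in any control Sham heart. The gene lies on chromosome 13, 43518972 to 43548679 in GRCm39. Control hearts 1 to 6 held 531, 388, 799, 794, 798 and 806 normalized counts, and c*Sirt5*-/- hearts 1 to 6 held 122, 127, 259, 89.7, 85.6 and 98.5. The lowest control values were those of the 2 middle-series hearts and the highest c*Sirt5*-/- value was that of heart 3, so the groups were separate but neither was uniform. The difference (log2 fold change −2.45, SE 0.39, adjusted p = 0.00177 from limma) gave p = 0.00216 in a two-sided exact permutation test over all 924 labelings, the smallest p that 6 against 6 hearts allow. Within subsets its log2 fold change was −1.71 in set 1, −3.11 in set 2 and −1.86 in the middle series. In set 1 and in the middle series, limma fits of those libraries alone gave adjusted p = 0.373 and adjusted p = 0.323. *Sirt3*, another mitochondrial sirtuin, held 1031 to 1154 (median 1057) in control and 928 to 1134 (median 1006) in c*Sirt5*-/- hearts (log2 fold change −0.08, limma adjusted p = 0.754), and none of the 6 other sirtuin genes passed in limma, edgeR or DESeq2 or had an unadjusted p under 0.05.

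With the study's thresholds, an adjusted p under 0.1 (Benjamini–Hochberg, limma) and over 1.5-fold, 491 genes differed between c*Sirt5*-/- and control Sham hearts, 2.03% of the 24239 tested. Of these, 358 (1.48%) rose and 133 (0.549%) fell in c*Sirt5*-/- hearts, and 423 were protein-coding. An unadjusted p under 0.05 in limma was held by 3897 of the 24239 genes. All 6 hearts of a genotype lay beyond all 6 of the other for 170 of the 491 genes (34.6%), compared with 2.45% of all genes tested. The median size of the 491 differences was 1.06 on the log2 scale. In the direction of the main difference, the same genes had a median of 0.81 within set 1, 1.22 within set 2 and 0.68 within the middle series, and 486, 488 and 469 of them kept their sign. These subsets are parts of the same hearts and are no independent support. The number of calls depended on a few hearts: it was 200 without c*Sirt5*-/- heart 6, 202 without control heart 6, 226 without control heart 4, 261 without control heart 5 and 299 without c*Sirt5*-/- heart 5. Without both c*Sirt5*-/- hearts 5 and 6 it was 147, of which 108 were among the 491. With the number series as a covariate 26 genes passed, 19 of them among the 491, and in the middle series alone 121 passed, of which 5 were. In total 136 of the 491 genes were called whichever single Sham heart was left out.

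**Figure D1:**
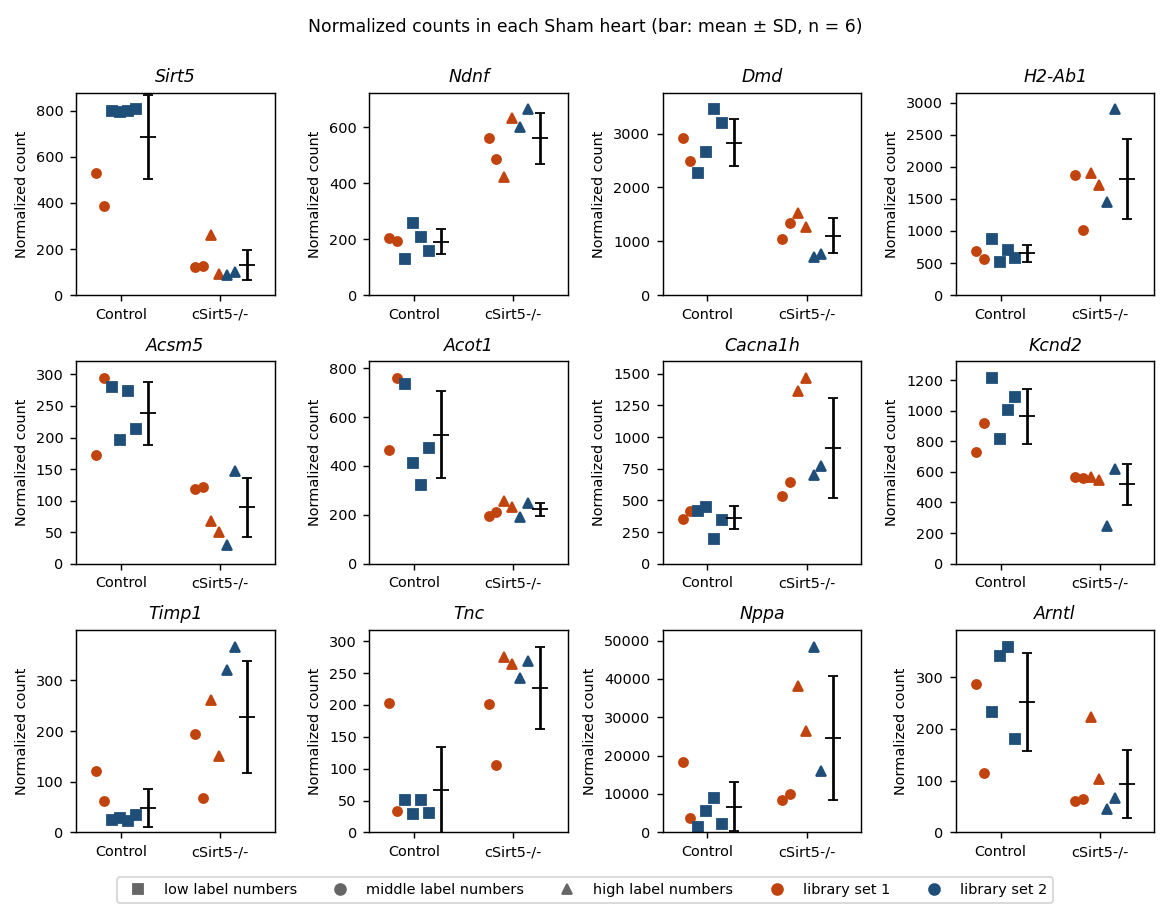
Normalized count (y axis, linear) of 12 genes in each Sham heart, with hearts 1 to 6 of a genotype from left to right and the mean ± SD of 6 hearts as a bar beside them. Colour gives the library set and marker shape the number series, and Sirt5, Ndnf, Dmd, H2-Ab1, Acsm5, Acot1, Cacna1h and Kcnd2 separate the genotypes completely, whereas Timp1, Tnc, Nppa and Arntl overlap in at least 1 heart.

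**Figure D2:**
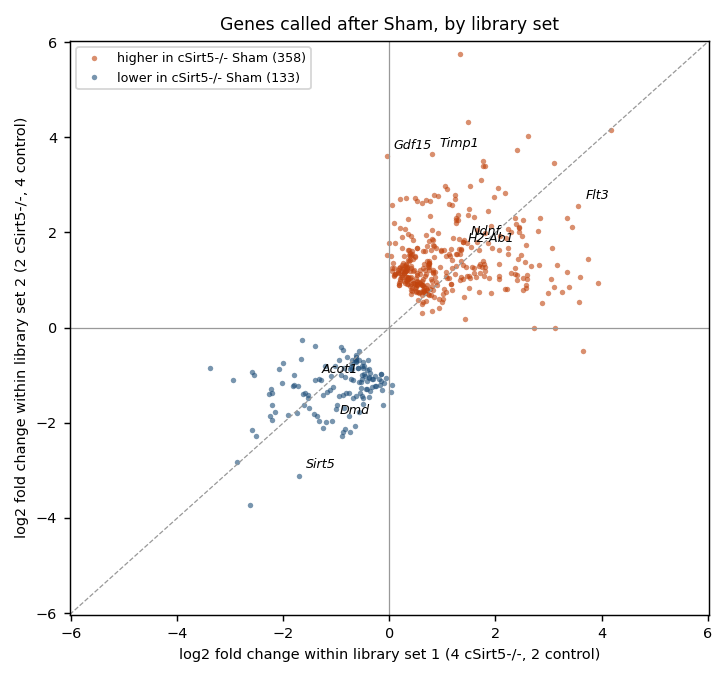
Log2 fold change between cSirt5-/- and control Sham hearts within library set 1 (x axis) against that within set 2 (y axis) for the 491 genes called over all libraries, 358 higher and 133 lower. Of these genes 486 kept their sign within set 1 and 488 within set 2, and the median size was 0.81 in set 1 and 1.22 in set 2.

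The genes of MHC class II antigen presentation formed the group with the largest share of members called. Class II molecules, an alpha and a beta chain encoded by the H2 genes of chromosome 17, display peptides from endocytosed protein to helper T cells on dendritic cells, macrophages and B cells. Their transcription depends on the coactivator CIITA, which acts through a conserved set of boxes just upstream of each gene, one of them a Y box that holds the letters CCAAT on one strand and is bound by the factor NF-Y. Of the 13 genes of the list, 9 rose in c*Sirt5*-/- Sham hearts and none fell, at a background of 1.48% higher among all genes, and the list's median log2 fold change was 1.21, compared with 0.02 over all genes. The promoters of 3 called members are shown because they carry such a box at nearly the same place. They are the 150 bases before the annotated start, from RefSeq on GRCm38, with TGATTGG in capitals, and lie at chr17:34153041-34153190, plus strand (*H2-DMb1*), chr17:34287824-34287973, minus strand (*H2-Aa*) and chr17:34305717-34305866, plus strand (*H2-Eb1*).
H2-DMb1: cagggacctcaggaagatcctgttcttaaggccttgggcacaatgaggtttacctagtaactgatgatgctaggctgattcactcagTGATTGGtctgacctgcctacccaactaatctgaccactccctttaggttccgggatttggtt
H2-Aa: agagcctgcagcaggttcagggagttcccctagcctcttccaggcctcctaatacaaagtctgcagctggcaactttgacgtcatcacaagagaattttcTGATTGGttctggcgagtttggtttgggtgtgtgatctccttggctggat
H2-Eb1: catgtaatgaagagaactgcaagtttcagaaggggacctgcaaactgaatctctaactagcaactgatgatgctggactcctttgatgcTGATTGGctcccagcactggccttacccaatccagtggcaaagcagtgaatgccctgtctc
The letters begin 63, 50 and 61 bases before the start. On either strand, TGATTGG occurred in this window in 1877 of 32851 mouse promoters (5.71%) and in 7 of the 10 list genes that the promoter table holds. Those 7 were 3 of 6 called members and all 4 uncalled members. All 13 list genes had a positive log2 fold change, and the 4 uncalled members had low counts. These shares therefore cannot show whether the letters mark the genes that rose.

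*H2-Ab1*, the beta chain of the I-A molecule (chromosome 17, 34476663 to 34488393 in GRCm39), held 509 to 871 (median 629.7) normalized counts in control and 1019 to 2898 (median 1797) in c*Sirt5*-/- hearts (log2 fold change 1.43, SE 0.20, adjusted p = 0.000641 from limma). The groups did not overlap. *H2-Eb1*, the beta chain of I-E, held 645 to 862 (median 699.5) and 1163 to 3401 (median 1916) (log2 fold change 1.40, SE 0.19, adjusted p = 0.000465 from limma). The alpha chain of I-A, *H2-Aa*, rose from 659 to 969 (median 718) to 1201 to 3684 (median 1888) (log2 fold change 1.33, SE 0.22, adjusted p = 0.00215 from limma). *Cd74*, the invariant chain that guards the peptide groove until the endosome, rose from 1565 to 2005 (median 1808) to 2836 to 8008 (median 4224) (log2 fold change 1.27, SE 0.20, adjusted p = 0.00187 from limma). In all 4 genes the c*Sirt5*-/- hearts had the same order, with heart 6 the highest, then hearts 3, 1, 4 and 5, and heart 2 the lowest. *H2-DMa* encodes one chain of the H2-M exchange factor that loads peptides, and it held 57.9 to 85.4 (median 64.5) in control and 134 to 245 (median 143) in c*Sirt5*-/- hearts (log2 fold change 1.28, SE 0.19, adjusted p = 0.00114 from limma). The other chain, *H2-DMb1*, held 29.9 to 62.5 (median 51) and 85 to 172 (median 113) (log2 fold change 1.29, SE 0.22, adjusted p = 0.00321 from limma). All 6 of these genes were called whichever Sham heart was left out and kept their direction in both sets and in the middle series. *Ciita* held 27.2 to 69.4 (median 44) and 67.5 to 145 (median 109), with an overlap of 1 control heart (log2 fold change 1.21, SE 0.29, adjusted p = 0.0341 from limma). The lysosomal protease gene *Ctss* (log2 fold change 0.96, limma adjusted p = 0.016) and the lysosomal thiol reductase gene *Ifi30* (log2 fold change 0.79, limma adjusted p = 0.0472) also rose, with overlapping groups. The 4 other members, *H2-DMb2*, *H2-Ob*, *H2-Oa* and *H2-Eb2*, had mean counts of 1.45 to 29.1 in control hearts and did not pass the test. The summed count of the list was 4050 to 5488 in control and 7333 to 20559 in c*Sirt5*-/- hearts. Its median was 1.12 within set 1, 1.51 within set 2 and 0.91 within the middle series, and 6 members passed without c*Sirt5*-/- hearts 5 and 6. With the number series as a covariate 3 members passed (*H2-Ab1*, *H2-Eb1* and *H2-DMa*), while *H2-Aa* and *Cd74* (both adjusted p = 0.158 from limma) and *H2-DMb1* (adjusted p = 0.227) did not, and none passed in set 1 alone or in the middle series alone. In whole-heart RNA, more cells of a type and more RNA per cell cannot be told apart.

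Some markers of antigen-presenting cells also rose. Among 8 dendritic cell markers 3 rose, against 1.48% of all genes. *Flt3*, the receptor tyrosine kinase of dendritic cell precursors, held 0 to 5.7 (median 3.08) in control and 11.6 to 40.2 (median 24.7) in c*Sirt5*-/- hearts (log2 fold change 2.83, SE 0.40, adjusted p = 0.000641 from limma), with no overlap and log2 fold changes of 3.56 in set 1, 2.55 in set 2 and 3.10 in the middle series. *Itgax*, which encodes the integrin CD11c, held 3.54 to 31 (median 17.2) and 32.6 to 108 (median 79.5) (log2 fold change 2.29, SE 0.42, adjusted p = 0.00539 from limma), again with no overlap. The lectin gene *Cd209a* rose with overlapping groups (log2 fold change 1.87, limma adjusted p = 0.0472). The summed count of the list was nevertheless 514.5 to 882 in control and 557 to 674 in c*Sirt5*-/- hearts. Among 16 macrophage markers 4 rose, none fell and the median was 0.50. Within subsets that median was 0.13 in set 1, 0.71 in set 2 and 0.11 in the middle series. *Lyz2*, which encodes lysozyme, held 2134 to 4595 (median 2839) in control and 4314 to 8370 (median 5267) in c*Sirt5*-/- hearts (log2 fold change 0.88, SE 0.17, adjusted p = 0.00824 from limma), and *Ccr2*, the receptor that brings monocytes from blood into tissue, held 51.3 to 189 (median 84.6) and 171 to 391 (median 219.7) (log2 fold change 1.44, SE 0.34, adjusted p = 0.0321 from limma). For *Ccr2* the highest control heart was heart 1. *Csf1r*, the growth factor receptor of macrophages, held 1118 to 1369 (median 1189) and 1346 to 2332 (median 1738), under the fold limit (log2 fold change 0.55, limma adjusted p = 0.0508), and *Adgre1*, which encodes F4/80, did not pass (log2 fold change 0.50, limma adjusted p = 0.236). In set 1, set 2 and the middle series, the log2 fold changes were 0.31, 1.32 and 0.21 for *Lyz2* and 0.97, 1.64 and 1.24 for *Ccr2*. The macrophage sum was 7927 to 13899 in control and 12594 to 20485 in c*Sirt5*-/- hearts.

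Among 12 T and NK cell markers 3 rose at very low counts, against 1.48% of all genes. *Cd3e*, a chain of the T cell receptor complex, held 1.08 to 2.14 (median 1.85) in control and 2.36 to 25.9 (median 10.9) in c*Sirt5*-/- hearts (log2 fold change 2.05, SE 0.48, adjusted p = 0.0294 from limma). The kinase gene *Lck* held 0 to 7.9 (median 2.44) and 10.1 to 17.2 (median 12.7) (log2 fold change 2.18, SE 0.52, adjusted p = 0.0328 from limma), and the granule gene *Nkg7* overlapped between groups (log2 fold change 1.93, limma adjusted p = 0.0895). The thymus genes named above were seen in c*Sirt5*-/- heart 3, which held 12.4 counts of *Cd3e*, whereas heart 6 held 25.9 with none of *Rag1* or *Dntt*. Without heart 3, *Cd3e* and *Lck* were still called. Which tissue or cells these low counts came from was not tested. Of 6 mast cell genes, the tryptase gene *Tpsb2* (2.36 to 14.9 (median 8.46) against 15.8 to 52.6 (median 30.5), log2 fold change 2.06, SE 0.40, adjusted p = 0.00933 from limma) and *Cpa3* (log2 fold change 1.66, limma adjusted p = 0.073) rose. No marker of B cells, neutrophils, red cells and platelets, lymphatic endothelium, pericytes or smooth muscle was called in limma. Of these 50 genes 8 had an unadjusted p under 0.05, compared with 3897 of all 24239 genes, and edgeR called 0 and DESeq2 1.

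Of 32 chemokine and chemokine receptor genes 7 rose, against 1.48% of all genes, and none fell, with a list median of 0.53. *Ccl8*, which draws monocytes and T cells, held 5.92 to 28.4 (median 11.1) in control and 52.4 to 333 (median 98.3) in c*Sirt5*-/- hearts (log2 fold change 2.95, SE 0.50, adjusted p = 0.00267 from limma). The c*Sirt5*-/- hearts all lay above the control hearts, and heart 6 was the highest. *Ccl2*, the main ligand of *Ccr2*, held 17.7 to 56.6 (median 46.9) and 90.9 to 151 (median 109) (log2 fold change 1.47, SE 0.37, adjusted p = 0.0437 from limma), with no overlap and log2 fold changes of 1.79 in set 1, 1.34 in set 2 and 2.02 in the middle series. *Ccl5*, a chemokine of T cells, held 0.987 to 6.64 (median 2.42) and 5.63 to 33.5 (median 22.9) (log2 fold change 2.48, SE 0.48, adjusted p = 0.00905 from limma). *Cxcl13*, the B cell chemokine, rose by 3.18 on the log2 scale from 0 to 7.48 (median 2.11) to 8.26 to 70 (median 26.8), and *Ccl12* and *Cxcl14* were also called. Of 22 complement genes 6 rose, none fell and the median was 0.60. They were the 3 chains of C1q, *C3*, the C5a receptor gene *C5ar1* and the properdin gene *Cfp*. *C1qb* held 654 to 1211 (median 908) in control and 1207 to 2159 (median 1516) in c*Sirt5*-/- hearts (log2 fold change 0.73, SE 0.17, adjusted p = 0.0319 from limma), and *C3* held 3259 to 6080 (median 3441) and 5042 to 12086 (median 8478) (log2 fold change 1.01, SE 0.27, adjusted p = 0.054 from limma). The complement median was 0.16 in set 1, 1.06 in set 2 and 0.02 in the middle series, and no complement gene passed without c*Sirt5*-/- hearts 5 and 6. None of 35 interferon-stimulated genes passed in limma, 8 had an unadjusted p under 0.05 (3897 of all 24239 genes did), edgeR called 0 and DESeq2 called 3. Without c*Sirt5*-/- hearts 5 and 6, the genes called were 2 of the dendritic cell list, 1 of the macrophage list, 1 of the mast cell list, 2 of the chemokine list and none of the T and NK cell list.

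**Figure D3:**
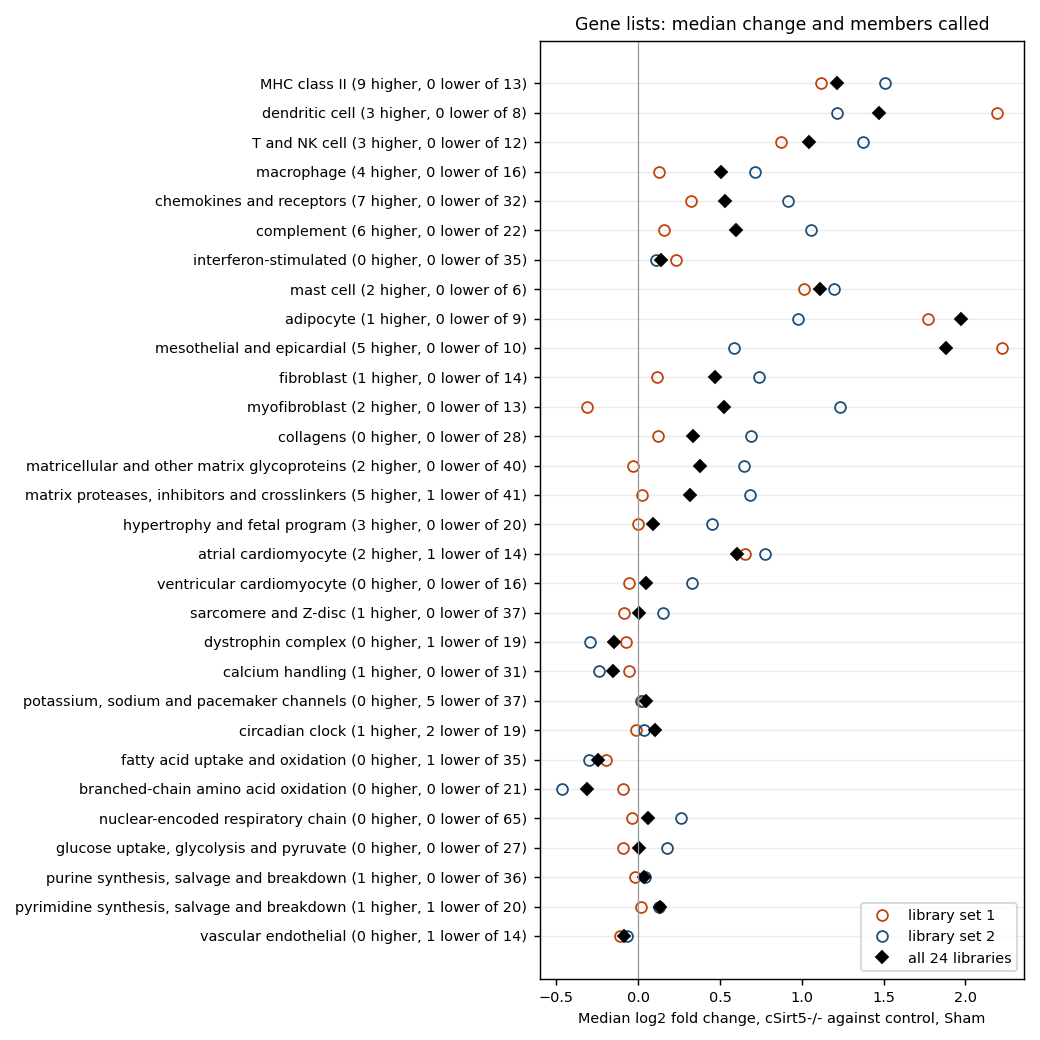
Median log2 fold change between cSirt5-/- and control Sham hearts (x axis) for 30 gene lists, with the number of members called higher and lower of those measured in each row label. Diamonds give the fit of all 24 libraries and open circles the medians within library sets 1 and 2, and the MHC class II list has the most members called, 9 of 13, with medians of 1.12 and 1.51 in the sets.

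Genes expressed in the outer lining of the heart were higher in part of the c*Sirt5*-/- hearts. Of 10 mesothelial and epicardial markers 5 rose, against 1.48% of all genes. The summed count was 178.5 to 383 in control and 502 to 719 in c*Sirt5*-/- hearts. *Aldh1a2*, the retinoic acid synthase of the epicardium, held 81.6 to 199 (median 109) and 189 to 398 (median 323) (log2 fold change 1.34, SE 0.26, adjusted p = 0.00933 from limma). *Muc16*, a mucin of mesothelial cells, was at 0 in all 6 control hearts and held 26.8, 19.8, 8.61, 0, 2.25 and 0 in c*Sirt5*-/- hearts 1 to 6 (adjusted p = 0.0419 from limma). Mesothelin, *Msln*, held 0, 4.73, 0, 0, 0 and 0 in control and 26.8, 27.9, 14.3, 9.44, 0 and 1.73 in c*Sirt5*-/- hearts (log2 fold change 2.65, SE 0.71, adjusted p = 0.0527 from limma). *Upk1b* and *Lrrn4* were likewise seen in c*Sirt5*-/- hearts 1 to 4 and at 0 in hearts 5 and 6. These counts are low, and they lay in the c*Sirt5*-/- hearts of set 1, since hearts 5 and 6 held at most 2.25 of any of these 4 genes. In adipocyte genes 1 of 9 rose, *Adipoq*, which held 4.27, 3.54, 0, 0.987, 0 and 2.16 in control and 1.12, 22.1, 23.9, 62.5, 5.63 and 47.5 in c*Sirt5*-/- hearts (log2 fold change 2.89, SE 0.90, adjusted p = 0.0938 from limma). That call was lost in 9 of the 12 fits that left out 1 heart, and edgeR and DESeq2 called 2 and 4 of the 9 genes. How much of the pericardial lining or fat each sample held is not given in the sources used here.

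Several genes of matrix turnover rose in c*Sirt5*-/- Sham hearts, whereas no collagen gene passed the test. *Timp1*, an inhibitor of matrix metalloproteinases, held 21.6 to 121 (median 31) in control and 68.7 to 366 (median 228) in c*Sirt5*-/- hearts (log2 fold change 2.31, SE 0.47, adjusted p = 0.0126 from limma). Control heart 1 and c*Sirt5*-/- heart 2 were where the groups overlapped, and the log2 fold change was 0.81 in set 1, 3.64 in set 2 and 0.42 in the middle series. *Tnc*, which encodes tenascin-C, a matrix glycoprotein of wounds, held 28.6 to 203 (median 42.3) and 106 to 276 (median 253), with control heart 1 at 203 and the other 5 control hearts at most at 50.5. *Lgals3*, the galectin-3 of activated macrophages, held 35.1 to 179 (median 53.3) and 130.4 to 402 (median 249.8), and *Ccn2*, the connective tissue growth factor gene, held 1421 to 4240 (median 1656) and 2722 to 11777 (median 5504). In all 4 genes control heart 1 was the highest control and the middle-series difference (0.42, 0.79, 0.54 and 0.28 in this order) was smaller than that over all hearts. Of 41 matrix protease, inhibitor and crosslinker genes 5 rose, *Timp1*, *Mmp12*, *Ctss*, *Mmp23* and *Pcolce*, and 1 fell, the collagenase gene *Mmp13*. The shares over all genes were 1.48% and 0.549%. *Mmp12*, the macrophage elastase gene, held 7.55 to 29.5 (median 18.1) and 24.4 to 70.8 (median 55) (log2 fold change 1.52, SE 0.40, adjusted p = 0.0508 from limma), whereas *Mmp13* held 9.45 to 60.2 (median 34.5) and 2.36 to 11.2 (median 9.92) (log2 fold change −1.77, SE 0.46, adjusted p = 0.0487 from limma). No gene of this list was called without c*Sirt5*-/- hearts 5 and 6. None of 28 collagen genes passed in limma, with 8 at an unadjusted p under 0.05 (3897 of all 24239 genes were) and 0 calls in edgeR and in DESeq2. *Col1a1* held 3630 to 8359 (median 3897) in control and 3558 to 13189 (median 6764) in c*Sirt5*-/- hearts (log2 fold change 0.52, limma adjusted p = 0.39), *Col3a1* had log2 fold change 0.70, limma adjusted p = 0.277, and *Postn*, the periostin gene of activated fibroblasts, had log2 fold change 0.58, limma adjusted p = 0.585.

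The genes of cardiac stretch and hypertrophy showed 3 of 20 members higher, against 1.48% of all genes, and none lower. *Nppa*, which encodes atrial natriuretic peptide, held 1431 to 18415 (median 4650) in control and 8340 to 48369 (median 21163) in c*Sirt5*-/- hearts (log2 fold change 2.10, SE 0.50, adjusted p = 0.0328 from limma). *Nppb*, the gene of the ventricular peptide BNP, held 1910 to 9636 (median 3654) and 4872 to 19459 (median 8001) (log2 fold change 1.12, SE 0.32, adjusted p = 0.0692 from limma), and its call was lost in 7 of the 12 fits that left out 1 heart. *Ankrd1*, a stretch-responsive protein of the sarcomere, held 26933 to 62867 (median 35246) and 65750 to 162755 (median 92120) (log2 fold change 1.23, SE 0.24, adjusted p = 0.00825 from limma), with all c*Sirt5*-/- hearts above all control hearts and log2 fold changes of 1.03 in set 1, 1.63 in set 2 and 0.75 in the middle series. *Myh7*, the fetal myosin, held 5496 to 27068 (median 7544) and 8104 to 61404 (median 23257) and did not pass (log2 fold change 1.33, limma adjusted p = 0.148). *Nppa* and *Nppb* had log2 fold changes of 0.15 and −0.05 in the middle series, and both c*Sirt5*-/- hearts of that series lay within the control range. Atrial genes varied between hearts as well. *Myl7*, the atrial regulatory light chain, held 0, 629, 65.5, 1.97, 0 and 86.3 in control hearts 1 to 6 and 16.8, 652, 5554, 4146, 3.38 and 692 in c*Sirt5*-/- hearts 1 to 6 (log2 fold change 4.36, limma adjusted p = 0.236). *Sln*, the atrial sarcolipin gene, and *Myl4* were likewise highest in c*Sirt5*-/- hearts 3 and 4. Of 14 atrial markers 2 rose (*Nppa* and *Stard10*) and 1 fell (*Kcnj3*), and the summed count was 21665 to 43520 in control and 34236 to 88423 in c*Sirt5*-/- hearts. Without c*Sirt5*-/- hearts 3 and 4 the *Nppa* difference was 1.76 (adjusted p = 0.129 from limma), and without hearts 5 and 6 *Ankrd1* alone of the hypertrophy list was called. The part of atrial tissue in the *Nppa* difference was not tested.

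Few structural genes of the cardiomyocyte passed the test, but some of them differed by more than 2-fold. *Dmd*, which encodes dystrophin, the rod that links the sarcomeric cytoskeleton to the membrane (chromosome X, 81992476 to 84249747), held 2276 to 3448 (median 2794) in control and 707 to 1518 (median 1153) in c*Sirt5*-/- hearts (log2 fold change −1.40, SE 0.21, adjusted p = 0.00114 from limma). The groups did not overlap, c*Sirt5*-/- hearts 5 and 6 were the lowest, and the log2 fold change was −1.08 in set 1, −1.96 in set 2 and −1.19 in the middle series. *Dmd* was 1 of 19 genes of the dystrophin complex to pass, against 2.03% of all genes. Its paralogue *Utrn*, which encodes utrophin, held 1791 to 3039 (median 2749) and 1952 to 2939 (median 2394) (log2 fold change −0.09, limma adjusted p = 0.812). *Ctnna3*, the alpha-T catenin of the intercalated disc, held 486 to 813 (median 651) and 223 to 444 (median 352) (log2 fold change −1.0, SE 0.19, adjusted p = 0.00697 from limma), and *Ppp2r3a*, a regulatory subunit of protein phosphatase 2A, held 7901 to 12032 (median 10499) and 3849 to 6017 (median 5622) (log2 fold change −0.97, SE 0.18, adjusted p = 0.00697 from limma). Both fell with no overlap. Of 37 sarcomere and Z-disc genes only *Ankrd1* passed. *Exoc2*, a subunit of the exocyst that tethers secretory vesicles, held 448 to 724 (median 655) and 233 to 380.2 (median 346) (log2 fold change −0.92, SE 0.14, adjusted p = 0.00114 from limma), and its log2 fold change was −0.38 in set 1, −1.46 in set 2 and −0.33 in the middle series.

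Of 37 sodium, potassium and pacemaker channel genes 5 fell, against 0.549% of all genes, and none rose. *Scn4a*, the sodium channel of skeletal muscle, held 1082 to 1406 (median 1194) in control and 507 to 936 (median 843) in c*Sirt5*-/- hearts (log2 fold change −0.69, SE 0.19, adjusted p = 0.0566 from limma). Among potassium channels, *Kcnd2*, a pore subunit of the fast transient outward current of the mouse ventricle, held 730.5 to 1213 (median 963) and 248 to 621 (median 563) (log2 fold change −0.93, SE 0.25, adjusted p = 0.0532 from limma). The modifier subunit gene *Kcnv2* held 389.8 to 518 (median 415) and 94.4 to 312 (median 128) (log2 fold change −1.50, SE 0.43, adjusted p = 0.0677 from limma), with c*Sirt5*-/- hearts 1 and 2 the closest to control. *Kcnj2*, a main subunit of the inward rectifier, and *Kcnj3*, of the acetylcholine-gated channel, fell by 0.71 and 0.66 on the log2 scale with overlapping groups. The calls of *Kcnv2*, *Kcnj2* and *Kcnj3* were each lost in 9 of the 12 fits that left out 1 heart. *Clcn1*, the chloride channel of muscle, held 228 to 554 (median 439.7) and 88.2 to 213 (median 160.2) (log2 fold change −1.43, SE 0.36, adjusted p = 0.0415 from limma). Of 31 calcium handling genes 1 was called, against 2.03% of all genes. In this list 9 genes had a positive log2 fold change and the median was −0.15. The called gene *Cacna1h*, a T-type calcium channel, held 195 to 448 (median 385) and 536 to 1465 (median 737) (log2 fold change 1.27, SE 0.22, adjusted p = 0.00267 from limma). Its highest values were in c*Sirt5*-/- hearts 3 and 4, which also held the most *Myl7*, and without these hearts it was 0.91 (adjusted p = 0.0346 from limma). Without c*Sirt5*-/- hearts 5 and 6, none of the 37 was called.

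Metabolic genes showed single large differences and small shifts of whole pathways. *Acsm5*, a medium-chain acyl-CoA synthetase of mitochondria, held 173 to 294 (median 243) in control and 30.4 to 147 (median 92.8) in c*Sirt5*-/- hearts (log2 fold change −1.57, SE 0.37, adjusted p = 0.0294 from limma). The groups did not overlap, and the log2 fold change was −1.42 in set 1, −1.81 in set 2 and −0.91 in the middle series. *Acot1*, a cytosolic thioesterase that releases fatty acids from acyl-CoA, held 323 to 759.7 (median 469) and 189 to 256 (median 222) (log2 fold change −1.19, SE 0.27, adjusted p = 0.0278 from limma), with log2 fold changes of −1.41 in set 1, −1.10 in set 2 and −1.54 in the middle series. Without c*Sirt5*-/- hearts 5 and 6, *Acsm5* was called and *Acot1* was not (log2 fold change −1.17, adjusted p = 0.107 from limma). *Acot1* was the only 1 of the 35 listed genes of fatty acid uptake and oxidation to pass, against 2.03% of all genes. The list does not hold every gene of the pathway. Of the 35, 30 had a negative log2 fold change, and the list median was −0.25 (−0.19 in set 1, −0.30 in set 2 and −0.23 in the middle series). The summed count of this list was 478533 to 596799 in control and 402433 to 475086 in c*Sirt5*-/- hearts, which did not overlap. That was not particular to this list. The sums for calcium handling (774455 to 930330 and 700486 to 742124) and ketone body use (70777 to 84257 and 59274 to 68833) did not overlap either. Nor did those for mitochondrial regulators (30955 to 33192 and 25617 to 30604) and the dystrophin complex (51040 to 56250 and 42750 to 49853). Sums that were higher without overlap were those for MHC class II, T and NK cell, mesothelial, and D cyclin and CDK inhibitor genes. The 21 genes of branched-chain amino acid oxidation had a median of −0.31 and none passed in limma, edgeR or DESeq2, with 12 at an unadjusted p under 0.05. That median was −0.10 in set 1 and 0.01 in the middle series. None of 65 nuclear-encoded respiratory chain genes passed in limma, edgeR or DESeq2, with 5 at an unadjusted p under 0.05. Of 27 genes of glycolysis and glucose uptake none passed in limma, 9 had an unadjusted p under 0.05, and edgeR and DESeq2 each called 1. Over all genes, 3897 of 24239 had an unadjusted p under 0.05. *Ucp2*, an inner membrane carrier of mitochondria, rose without overlap from 830 to 1511 (median 1185) to 1862 to 3363 (median 2543) (log2 fold change 1.11, SE 0.18, adjusted p = 0.00187 from limma).

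In nucleotide metabolism, which salvages and degrades the purines released from ATP, 1 of 36 purine genes passed, against 2.03% of all genes. *Nt5e*, the ectoenzyme CD73 that makes adenosine from AMP, held 378 to 515 (median 395.1) in control and 494 to 848 (median 715) in c*Sirt5*-/- hearts (log2 fold change 0.70, SE 0.15, adjusted p = 0.0193 from limma), with a log2 fold change of 0.68 in the middle series. *Adk*, the kinase that returns adenosine to AMP, held 3806 to 4745 (median 4476) and 3109 to 3669 (median 3495). Its groups did not overlap, but the difference was under the fold limit (log2 fold change −0.35, SE 0.09, adjusted p = 0.0411 from limma). The purine genes *Pnp* (log2 fold change 0.40, limma adjusted p = 0.274), *Aprt* (log2 fold change 0.32, limma adjusted p = 0.365) and *Hprt* (log2 fold change 0.13, limma adjusted p = 0.506) did not pass. Of 20 pyrimidine genes 1 fell and 1 rose, against 0.549% and 1.48% of all genes. *Dpyd*, the first enzyme of pyrimidine breakdown, held 332 to 419 (median 376) and 126 to 244 (median 195) (log2 fold change −1.03, SE 0.21, adjusted p = 0.0152 from limma), with no overlap and log2 fold changes of −0.87 in set 1, −1.42 in set 2 and −1.01 in the middle series. *Upp1*, a uridine phosphorylase, held 48.4 to 149.5 (median 78.8) and 116.4 to 167 (median 153) (log2 fold change 0.87, SE 0.23, adjusted p = 0.0508 from limma), and it was 0.07 in the middle series.

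Of 19 genes of the circadian clock 2 fell and 1 rose, against 0.549% and 1.48% of all genes. The hour at which hearts were taken, which sets the level of such genes, is not given in the sources used here. *Arntl*, the activator BMAL1, held 115 to 359 (median 259.9) in control and 45 to 222 (median 65.9) in c*Sirt5*-/- hearts (log2 fold change −1.54, SE 0.44, adjusted p = 0.0676 from limma). Its partner *Clock* held 1034 to 1617 (median 1502) and 716 to 1235 (median 885) (log2 fold change −0.61, SE 0.16, adjusted p = 0.0505 from limma), and the repressor *Per2* held 236 to 729 (median 366) and 519 to 1043 (median 925) (log2 fold change 1.09, SE 0.25, adjusted p = 0.0281 from limma). The groups overlapped for all 3 genes, and none of the list was called without c*Sirt5*-/- hearts 5 and 6. The 16 other clock genes measured did not pass, among them *Nr1d1* (log2 fold change −0.72, limma adjusted p = 0.412) and *Dbp* (log2 fold change 0.10, limma adjusted p = 0.929).

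Several secreted factors and stress genes were called. *Ndnf*, a neuron-derived neurotrophic factor that endothelial cells and muscle also secrete (chromosome 6, 65648574 to 65689310), held 129 to 257 (median 198) in control and 424 to 665 (median 581) in c*Sirt5*-/- hearts (log2 fold change 1.57, SE 0.19, adjusted p = 0.000205 from limma), the smallest adjusted p of all genes. Its log2 fold change was 1.39 in set 1, 1.79 in set 2 and 1.39 in the middle series, and the groups did not overlap. Of the 27 neurotrophic and secreted signals 4 rose and 1 fell, against 1.48% and 0.549% of all genes. *Nrtn*, which encodes neurturin, *Igf1* and *Fgf12* were among those that rose, and *Bdnf* fell from 249.9 to 451 (median 355) to 191 to 248 (median 238) (log2 fold change −0.60, SE 0.15, adjusted p = 0.0431 from limma). *Ndrg4*, a gene of heart growth and neurons, held 8472 to 11261 (median 9929) and 14667 to 19442 (median 16265) (log2 fold change 0.74, SE 0.10, adjusted p = 0.000641 from limma), and *Jpt1*, which encodes a small protein of the cytoplasm and nucleus, held 1507 to 1719 (median 1619) and 2427 to 4341 (median 2700) (log2 fold change 0.93, SE 0.14, adjusted p = 0.0013 from limma). Neither overlapped. The calls of *Igf1*, *Fgf12* and *Bdnf* were lost in 9, 9 and 5 of the 12 fits that left out 1 heart. In the integrated stress response list 3 of 20 genes rose, as did 3 of 27 antioxidant genes, against 1.48% of all genes, and none fell. *Gdf15*, a cytokine of the integrated stress response, held 15.1 to 176 (median 43.2) and 74.9 to 414 (median 127) (log2 fold change 1.83, SE 0.55, adjusted p = 0.0804 from limma), but its log2 fold change was −0.05 in set 1, 3.61 in set 2 and −0.29 in the middle series. The metallothionein gene *Mt2* held 153 to 1089 and 606 to 1459, with a log2 fold change of 0.08 in set 1, and *Hmox1*, the heme oxygenase gene, held 129 to 253 (median 174) and 189.8 to 442 (median 308). The calls of *Gdf15*, *Mt2* and *Hmox1* were lost in 7, 7 and 8 of the 12 fits that left out 1 heart. *Mt2* did not pass in edgeR (adjusted p = 0.191) or in DESeq2 (adjusted p = 0.172), and *Gdf15* did not pass in edgeR (adjusted p = 0.138). None of 23 heat shock genes passed in limma, edgeR or DESeq2, with 3 at an unadjusted p under 0.05, compared with 3897 of all 24239 genes.

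The other genes with the largest differences have less familiar roles in the heart. *Lad1*, which encodes a basement membrane anchor of epithelia, held 23.4 to 168 (median 63.5) in control and 113 to 268 (median 153) in c*Sirt5*-/- hearts (log2 fold change 1.31, SE 0.35, adjusted p = 0.0539 from limma). *Abca12*, a lipid transporter known from the skin, held 148 to 352 (median 311) and 102 to 168 (median 129) (log2 fold change −1.01, SE 0.23, adjusted p = 0.0243 from limma), and *Tmem150c*, a membrane protein of mechanically gated currents, held 194 to 422 (median 336) and 113 to 225 (median 159.8) (log2 fold change −0.99, SE 0.27, adjusted p = 0.0589 from limma). The predicted gene *Gm31663* fell without overlap from 163 to 199 (median 183) to 57.8 to 97.3 (median 83.1) (log2 fold change −1.18, SE 0.24, adjusted p = 0.0152 from limma). *Gm10736*, also a predicted gene, held 43.7 to 75 (median 59.3) and 88.5 to 382 (median 111), where 362 and 382 were the values of c*Sirt5*-/- hearts 5 and 6 and the other 4 held at most 113. *Kdr*, the main VEGF receptor of endothelial cells, fell without overlap from 6347 to 8466 (median 7510) to 4142 to 5772 (median 4742) (log2 fold change −0.64, SE 0.18, adjusted p = 0.0692 from limma) and was the only vascular endothelial marker of 14 to pass, a call lost in 8 of the 12 fits that left out 1 heart. The acute phase gene *Hp*, which encodes haptoglobin, rose from 4.51 to 22.4 (median 10.2) to 29.1 to 185 (median 69.5) (log2 fold change 2.59, SE 0.72, adjusted p = 0.0629 from limma). Of 25 immediate early genes *Myc* passed (log2 fold change 1.03, limma adjusted p = 0.0503), whereas edgeR and DESeq2 each called 5. Of 25 proliferation genes *Mcm5* passed (log2 fold change 0.60, limma adjusted p = 0.0828), a call lost in 10 of the 12 fits. The share that passed over all genes was 2.03%.

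Many of these calls did not hold in every fit. With the number series as a covariate, *Sirt5*, *Ndnf*, *Ndrg4*, *Ucp2*, *Flt3*, *Tpsb2*, *Per2*, *Muc16* and the 3 MHC class II genes named above were called. The other called genes that are described were not, among them *Dmd* (adjusted p = 0.128 from limma), *Exoc2* (adjusted p = 0.13), *Ankrd1* (adjusted p = 0.385), *Acot1* (adjusted p = 0.539), *Nppa* (adjusted p = 0.633) and *Acsm5* (adjusted p = 0.66). Besides the losses given beside each gene, leaving out 1 heart ended the call in 3 to 5 of 12 fits for *Clcn1*, *Myc*, *Mmp12*, *Mmp13*, *Cxcl13*, *Cd209a*, *Ifi30*, *Msln*, *Kcnd2*, *Scn4a*, *Cxcl14*, *C5ar1*, *Upp1*, *Lad1* and *Ccnd2*, and in 1 for *H2-T22*. It did so in 6 to 8 for *Clock*, *Arntl*, *Hp*, *C3*, *Cfp*, *Stard10*, *Tmem150c*, *Gm10736*, *Ccl12* and *Pcolce*, and in 9 or 10 for *Mmp23*, *Upk1b*, *Lrrn4*, *Cpa3* and *Nkg7*. Most of these losses occurred without control heart 4, 5 or 6 or without c*Sirt5*-/- heart 6. The other tools gave other counts for some lists: edgeR called 1 of the T and NK cell markers, 6 of the mesothelial, 4 of the hypertrophy and 5 of the atrial genes, and DESeq2 called 1, 2, 6 and 5. In the sarcomere and Z-disc list each called 2.

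Several of the genes that fell are among the longest in the genome, and the genotype difference varied with gene length. *Dmd* spans 2257 kb, *Ctnna3* 1574 kb, *Immp2l*, a protease subunit of the mitochondrial inner membrane, 928 kb and *Dpyd* 871 kb. *Immp2l* held 306 to 367 (median 314) in control and 100.3 to 206 (median 145) in c*Sirt5*-/- hearts, with no overlap (log2 fold change −1.16, SE 0.24, adjusted p = 0.0136 from limma). Over 10602 protein-coding genes whose mean was 100 or more, the median log2 fold change was 0.14 for the 980 genes of up to 5 kb and −0.19 for the 80 genes over 500 kb. Within set 2 the medians were 0.37 and −0.43, whereas they were −0.01 and 0.01 within set 1 and 0.02 and −0.04 in the middle series. Relative to the mean of the 12 Sham hearts, the median of genes over 200 kb minus that of genes of up to 10 kb was −0.34 and −0.45 in c*Sirt5*-/- hearts 5 and 6. In the other 10 Sham hearts it was −0.12 to 0.23. The part of this trend in the differences of single long genes was not tested. Within the middle series, where the length trend was small, the log2 fold changes of *Dmd*, *Ctnna3*, *Immp2l*, *Dpyd* and *Exoc2* were −1.19, −0.57, −0.67, −1.01 and −0.33. Without c*Sirt5*-/- hearts 5 and 6, *Dpyd* was no longer called (log2 fold change −0.81, adjusted p = 0.123), whereas limma still called the other 4, with log2 fold change −1.13, adjusted p = 0.0185 for *Dmd*, log2 fold change −0.75, adjusted p = 0.0177 for *Exoc2*, log2 fold change −0.76, adjusted p = 0.0866 for *Ctnna3* and log2 fold change −1.12, adjusted p = 0.0832 for *Immp2l*.

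**Figure D4:**
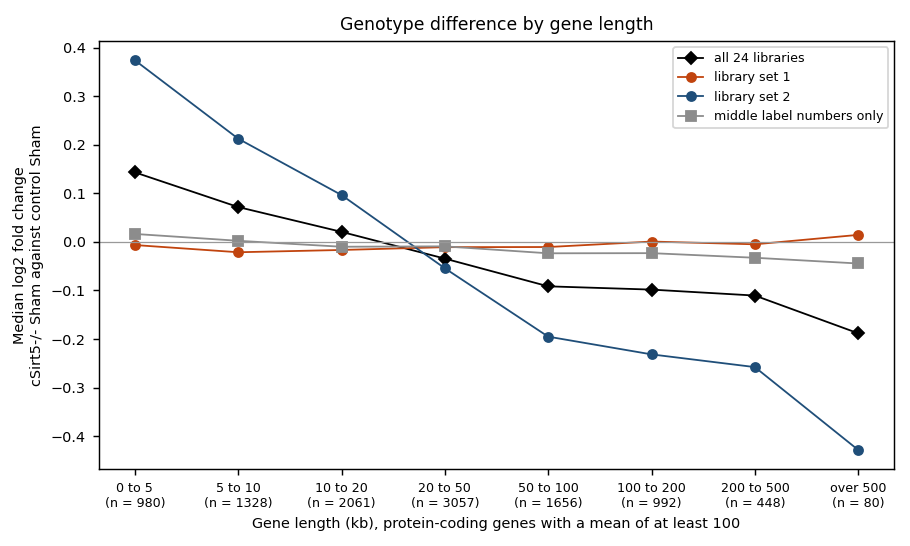
Median log2 fold change between cSirt5-/- and control Sham hearts (y axis) of protein-coding genes whose mean was 100 or more, in 8 bins of gene length in kb (x axis, n genes below each bin). Within library set 2 the medians fell from 0.37 in the shortest bin to −0.43 in the longest, whereas those of library set 1 and of the middle series stayed within 0.05 of 0.

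The same genes were then read in the 12 TAC hearts, which share no heart with the Sham comparison. Of the 491 genes, 391 (79.6%) had the same sign of the genotype difference after TAC, compared with 60.9% of all genes, and 94 (19.1%) were called in the same direction, compared with 2.59% of all genes. The 94 were 11.9% of the 787 genes (3.25% of all genes) called after TAC, and 2 of the 491 were called in the opposite direction. In the TAC hearts the median of genes of up to 5 kb was 0.26 and that of genes over 500 kb −0.28, so the length trend was shared, and its part in these counts was not tested. The libraries labelled c*Sirt5*-/- TAC 2 and 4 held 886 and 499 normalized counts of *Sirt5*, compared with 95.8 to 138.6 in the 4 other c*Sirt5*-/- TAC hearts and 565 to 795.5 in the control TAC hearts. Without them 380 of the 491 genes (77.4%) kept their sign, and 282 genes were called after TAC. Of the 491, 32 were called in the same direction, compared with 0.908% of all genes. *Ndnf* had a log2 fold change of 1.86 after TAC (82.9 to 248 normalized counts in control and 379 to 635 in c*Sirt5*-/- hearts), and *Dmd* had −1.55 (1757 to 4170 and 645 to 1635). *H2-Ab1* had 0.68, *H2-Eb1* 0.73, *Cd74* 0.74 and *Itgax* 1.80. *Nppa* had −0.21 and *Ankrd1* −0.04 after TAC.

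A difference between the genotype effects after Sham and after TAC was tested as an interaction. It was called for 22 genes (0.0908%), 7 of them among the 491. The Sham difference that selected the 491 is part of the interaction, so the 7 are not independent of that choice. *Acot1* was lower in c*Sirt5*-/- Sham hearts and had a log2 fold change of 0.59 after TAC, where control hearts held 36.3 to 183 and c*Sirt5*-/- hearts 93.6 to 196.5 normalized counts (interaction 1.78, adjusted p = 0.0868 from limma). *Prr33*, which like *Adap1* and *Gm40658* was named after its values were seen, held 212 to 315 (median 290.2) in control Sham and 129 to 188 (median 147) in c*Sirt5*-/- Sham hearts, and was higher in c*Sirt5*-/- hearts after TAC (log2 fold change 0.77, interaction 1.64, adjusted p = 0.029 from limma). The 5 other genes were *Gm31663* and *Gm40658*, lower after Sham, and *Ccnd2*, *Adap1* and the class I gene *H2-T22*, higher after Sham. When those 2 c*Sirt5*-/- TAC libraries were left out, 4 of the 7 were called, and *Acot1*, *H2-T22* and *Gm40658* were not. For *Nppa* and the MHC class II genes the interaction did not pass the test.

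**Figure D5:**
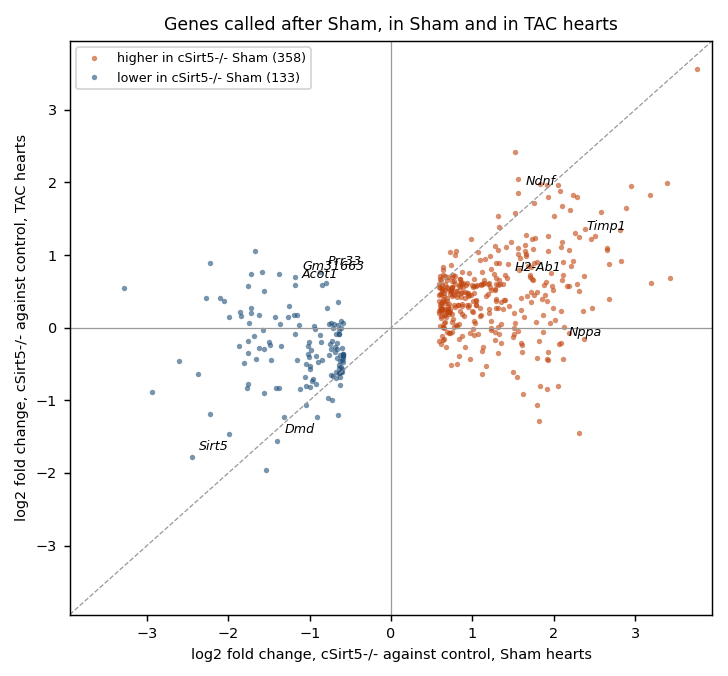
Log2 fold change between cSirt5-/- and control hearts after Sham surgery (x axis) against that after TAC (y axis) for the 491 genes called after Sham, with the diagonal as a broken line. Of these genes 391 lay on the same side of 0 in both, and Acot1, Prr33 and Gm31663 were lower after Sham with a positive value after TAC.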

How the data were processed

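RNA of whole hearts was sequenced in 24 libraries, of which 12 are from Sham mice. Per the methods of the study, RNA was purified with the RNeasy kit, made into directional NEBNext Ultra II libraries and sequenced in pairs on a HiSeq2000, and the reads were trimmed with Trim Galore and aligned with STAR to GRCm39. The counter is not given in the sources used here. The deposited values are a signal per gene, counts that the authors divided by DESeq2 size factors, after keeping genes with at least 10 reads. Dividing by each library's step returned whole reads for 100% of values, within 0.01. The fold changes (log2 and signed), Wald statistics and p-values that the authors deposited compare TAC with Sham in each genotype and were not used. All columns of per-sample values were used.

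In R 4.3.3, log2(signal + 1) was fitted with limma 3.58.1 (mean-variance trend, 24 libraries, 1 term per group, Benjamini–Hochberg over 24239 genes). Genes were called at an adjusted p under 0.1 and more than 1.5-fold, as in the study. edgeR 4.0.16 and DESeq2 1.42.0 were run on the recovered reads, and other pseudocounts, filters, scalings, weights, covariates and subsets of hearts were tried. In simulated data of the Sham comparison over 24239 genes, 74% of 1.6-fold, 90% of 2-fold and 98% of 3-fold increases were called. The changed genes, 50 per fold, had a mean of at least 50, and 12 unchanged genes were called. The simulation held no library sets, number series or length trend, so these shares do not cover low counts or the layout of these hearts. Library sets were split at a log2 ratio of antisense to sense reads of −9.5, over nested genes on opposite strands. Symbols are those of the table, and GENCODE gave positions for 24037 genes. No library repeated another of its group (the chi-square divided by its degrees of freedom was at least 8.87 in 30 pairs). Named were *Sirt5*, the 15 genes that rose most and the 15 that fell most among called genes with a mean of at least 100 in Sham hearts, the 10 smallest adjusted p among them, and members of the gene lists, except for a few genes, left out of the lists, that are not reported here. Members and lists were chosen with earlier results of these data known. Replicate numbers were not used as pairs, and the check of them is in the closing section.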

Additional observations from a re-analysis of the deposited data

Results flagged for a closer look

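Among 250 groups of 6 hearts, 1 per genotype for each of 125 genes described, 21 hearts stood apart from the rest of their group by Dixon's test at the 95% level, which chance passes in about 1 in 20 groups. Control heart 1 was highest of its group for *Tnc* (203), *Ccn2* (4240), *Myh7* (27068), *Col1a1* (8359) and *Postn* (6043). Control heart 2 was highest for *Msln* (4.73), *Upk1b* (2.36) and *Sftpc* (1.18), and control heart 5 was highest for *Rag1* (0.901) and lowest for *Cacna1h* (194.7). Control heart 6 was lowest for *Mcm5* (67.9). Among c*Sirt5*-/- hearts, heart 2 was lowest for *Tnc* (106) and *Upp1* (116.4), and heart 3 was highest for *Sirt5* (259), *Dntt* (28.7) and *Rag1* (46.9). Heart 4 was lowest for *Mmp13* (2.36). Heart 5 was lowest for *Kcnd2* (248) and highest for *Myc* (303), and heart 6 was highest for *Ddit4* (2071) and *Gm40658* (3.46).

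The genotype effect differed between Sham and TAC hearts, by the interaction in limma, for 7 of these genes. Many of the genes were described for their Sham difference, which is part of the interaction. *Prr33*, *Adap1* and *Gm40658* were added after their values were seen. The 7 are therefore no independent support. The interaction on the log2 scale was 1.78 for *Acot1*, 1.88 for *Gm31663*, 1.64 for *Prr33* and 3.12 for *Gm40658*, and −0.81 for *H2-T22*, −0.83 for *Ccnd2* and −1.25 for *Adap1*.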

How the results depend on the processing

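The count of 491 genes was 1314 with array weights, 279 among genes with a mean of at least 100, 26 with the number series as a covariate, 1656 in set 2 alone and 121 in the middle series alone. It was 0 in set 1 alone, where 1779 genes had an unadjusted p under 0.05 and no other tool was run. Leaving out 1 heart gave 200 to 619 genes (200 without c*Sirt5*-/- heart 6, 619 without c*Sirt5*-/- heart 2). Chosen after seeing the data, leaving out c*Sirt5*-/- hearts 5 and 6 gave 147 and hearts 3 and 4 gave 304. DESeq2 called 677 (400 shared), edgeR 509 (417 shared) and the library set as a covariate 489. *Sirt5* was −1.71 in set 1 and −1.86 in the middle series without passing the test. *Gdf15* reversed to −0.05 in set 1 and −0.29 in the middle series. The cause was not tested in these cases. The split was 50 higher and 71 lower in the middle series and 992 and 664 in set 2, against 358 and 133. The interaction count of 22 was 37 at a mean of at least 10, 268 in DESeq2, 25 in edgeR and 17 without 2 c*Sirt5*-/- TAC libraries. Same-numbered hearts did not deviate together (correlations −0.12 to 0.08), and the replicate block called 514 genes. Of the 491 genes 250 had a mean under 100, where counting error is largest.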
